A study of Mus musculus with 8 samples.

Results

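Enzymes that metabolise drugs and bile acids were compared between livers of mice without Abcb4 and wild-type livers. They were taken as all genes whose symbol on the array names a cytochrome P450 (Cyp, without Cyp51), a UDP-glucuronosyltransferase (Ugt), a sulfotransferase (Sult), a glutathione S-transferase (Gst), a carboxylesterase (Ces), a flavin monooxygenase (Fmo), an epoxide hydrolase (Ephx) or an aldehyde dehydrogenase (Aldh). The rule used names alone and no measured value. It found 69 of the 9030 named genes, on 82 of 20794 probes, and 67 of them could be tested. Of the 69 genes, 57 had 1 probe, 11 had 2 and 1 had 3.

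The study hybridised liver RNA of 4 male Abcb4-/- mice, of the strain Balb/cByJ and 17 weeks old, to 2-colour cDNA arrays, each time against 1 pool of liver RNA from male wild-type mice of the same strain and age. Abcb4 is the canalicular transporter that moves phosphatidylcholine from the hepatocyte into bile. Each mutant mouse was hybridised in both dye orientations, with mutant RNA in Cy5 on 1 array and in Cy3 on the other. The sources used here do not say how the mutant allele was made, and the pool is described as 4 animals in one label and 6 in another.

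Cytochrome P450 enzymes insert oxygen into lipophilic compounds, and members outside the drug-oxidising families make bile acids, steroid hormones and active vitamins. Glucuronosyl-, sulfo- and glutathione transferases then attach a polar group that lets the product leave through bile or urine. In liver many of these genes are switched on by nuclear receptors and sensors that bind bile acids, foreign compounds or electrophiles.

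All values are log2 ratios as deposited, in which a positive value likely means more RNA in the mutant. The sources used here do not state the direction. The array constant was the offset of the placeholder values, those above 15 in size, from an assumed linear ratio of 100000. It was between -0.58 and -0.39 on the arrays with the mutant in Cy5 and between 0.57 and 0.62 with the mutant in Cy3. Mouse 1 was not used, because its 2 columns were the same values with opposite signs, adding up to 0 within 0.012 on 20577 probes. The replicates are thus 3 mice, each the mean of its 2 arrays. The test set these means against 0, so the spread among wild-type mice is not part of it. In whole liver, fewer cells of a type and less RNA per cell cannot be told apart. The 6 arrays had between 20583 and 20738 usable probes. The SD of all tested features was between 0.21 and 0.30 on 5 arrays and 0.44 on the mouse 3 Cy3 array, where Cy3 names the dye of the mutant RNA. The number of arrays limits the precision. Gene names are those of the platform annotation, and probes that carry the same name did not give like ratios. Whether the annotation matches the probes of the value table was not tested directly. The paired probes and the low-signal values described below gave the names no support, so a value printed under a gene's name may belong to another gene. What is said of a gene's function is background on the name. The probe named Abcb4 had a ratio of -0.27 ± 0.33 (SD, n = 3; limma adjusted p = 0.530). Its value on the mouse 3 Cy3 array lay far below those on the other arrays, which ran from -0.26 to 0.07. The negative mean thus rested largely on that array. The sources used here do not say whether the probe lies in the deleted part.

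The enzyme families as a whole sat close to a ratio of 0. The median of the 67 tested enzymes was 0.01 and that of all 16796 tested features was 0.02. Ratios above 0 were found for 35 of the 67 (52.2%), against 59.5% of all features. With the Cy3 columns turned, 42 of the 67 (62.7%) lay above 0, against 64.1% of all features, and the medians were 0.045 and 0.04. If the columns already run mutant over pool, such turned values measure the difference between dye orientations. The mean ratio was under 0.1 in size for 45 enzymes (67.2%), against 65.2% of all features, and for none of the 67 was it over 0.5. The highest mean belonged to Ces1c, at 0.36, and the lowest to Gstm5, at -0.48. With the Cy3 columns turned the highest was Cyp2d22, at 0.50, and the lowest Aldh1a7, at -0.17.

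None of the 67 enzymes passed the limma test at an adjusted p under 0.05, which 0.333% of all features did. At an unadjusted p under 0.05 there were 9 enzymes (13.4%), against 9.92% of all features. Of these, 4 had positive ratios (Ces1c, Ces1e, Cyp4f18 and Gstk1), where the share among all features was 6.71%. The other 5 had negative ratios (Cyp2d22, Cyp2s1, Cyp4f14, Sult1a1 and Ugt1a6a), where the share was 3.21%. Without mouse 2, 4 of 68 enzymes had such a p, against 7.25% of all features. No enzyme is called changed here.

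Values of 1 sign on all 6 arrays were positive for 4 enzymes (Ces1e, Cyp4f18, Gstk1 and Gstz1), against 6.10% of all features, and negative for 3 (Cyp3a13, Sult1a1 and Ugt1a6a), against 0.905%.

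**Figure D1:**
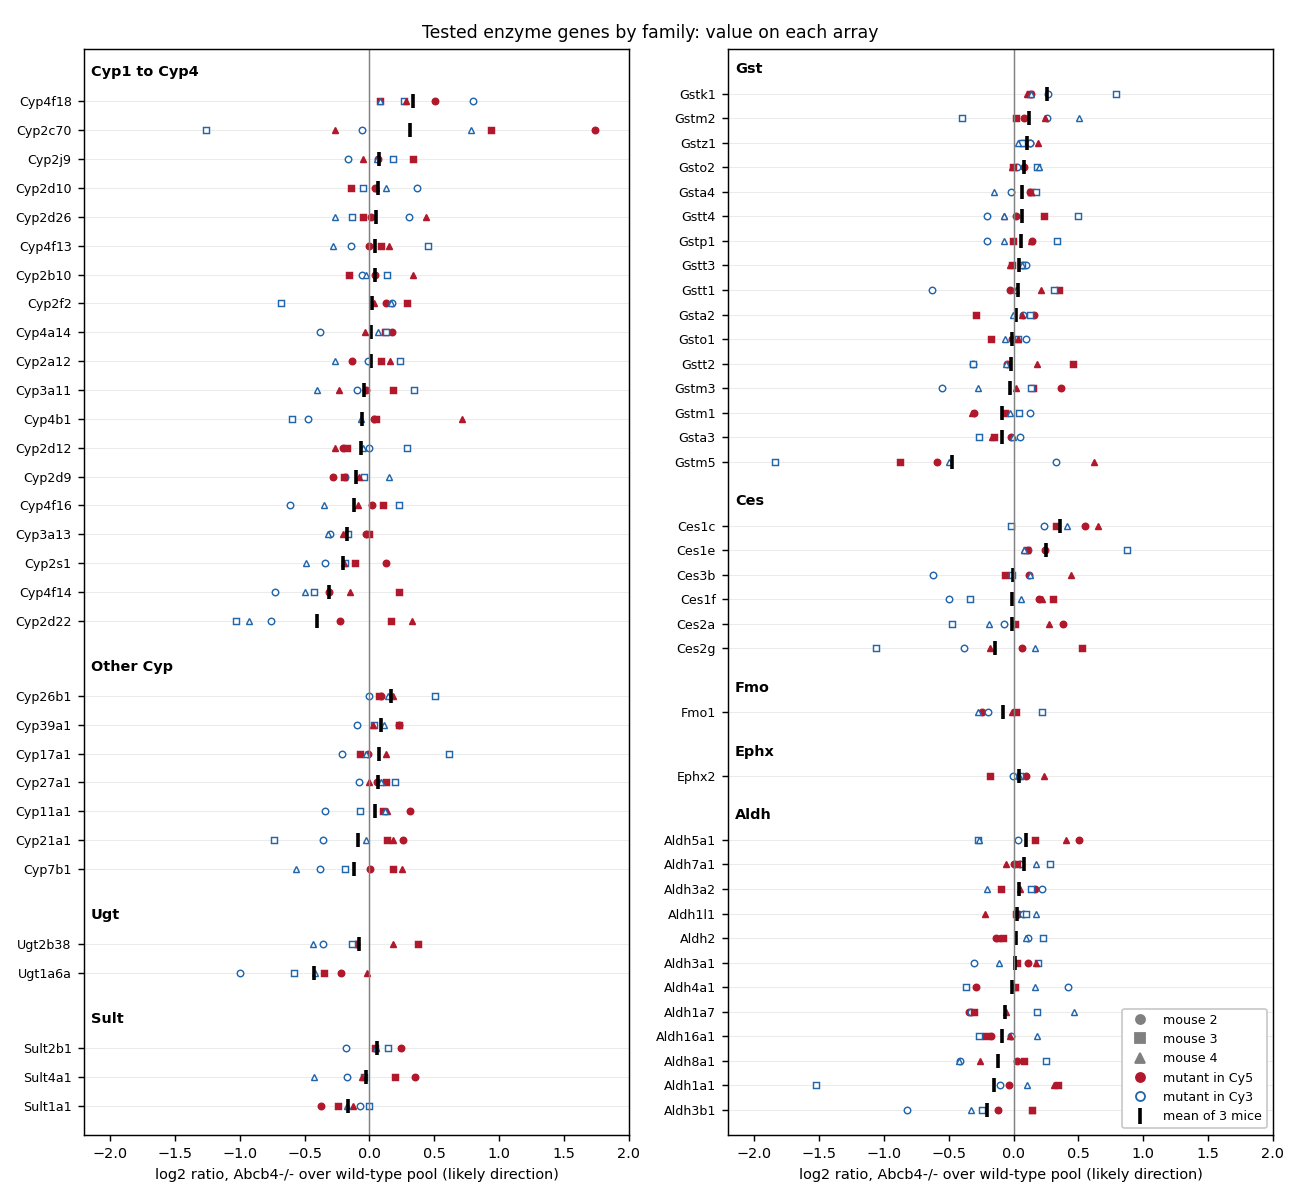
Log2 ratio (horizontal axis) of each tested enzyme gene on each of 6 arrays, grouped by family; the symbol shape is the mouse, filled red symbols have the mutant in Cy5, open blue ones have it in Cy3, and the black bar is the mean of 3 mice. Most bars lie within 0.1 of 0, Ces1c has the highest mean (0.36) and Gstm5 the lowest (-0.48), and many rows spread more between arrays than their mean lies from 0.

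Among the 19 drug and fatty acid oxidising P450 genes of families Cyp1 to Cyp4, 10 ratios lay above 0 and 9 below, with a median of 0.01. Cyp2d22, a mouse member of the Cyp2d drug-oxidising subfamily, had the lowest adjusted p of all enzymes. Its ratios with the mutant in Cy5 were -0.23 in mouse 2, 0.17 in mouse 3 and 0.33 in mouse 4, while the Cy3 arrays gave -0.76, -1.03 and -0.93. The 2 orientations did not overlap, and the negative mean came from the Cy3 arrays. The mean over mice was -0.41 ± 0.10 (SD, n = 3; limma adjusted p = 0.104), a 1.33-fold difference. Without the Cy3 array of mouse 3 the mean was -0.21. The other tested Cyp2d genes, Cyp2d9, Cyp2d10, Cyp2d12 and Cyp2d26, had means between -0.11 and 0.07.

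Cyp4f14 and Cyp4f18 hydroxylate leukotriene B4, a lipid mediator of inflammation, and Cyp4f14 also acts on vitamin E in liver. Cyp4f14 had ratios of -0.31 and -0.73 in mouse 2, 0.23 and -0.43 in mouse 3, and -0.15 and -0.50 in mouse 4, with the Cy5 array first. All 3 Cy3 arrays lay below all 3 Cy5 arrays. The mean was -0.32 ± 0.21 (SD, n = 3; limma adjusted p = 0.300). Cyp4f18, known from neutrophils and other myeloid cells, had ratios of 0.51 and 0.80 in mouse 2, 0.08 and 0.27 in mouse 3, and 0.29 and 0.08 in mouse 4. All 6 were positive and mouse 2 was the highest. The mean was 0.34 ± 0.27 (SD, n = 3; limma adjusted p = 0.341), and it was 0.18 without mouse 2. The other tested Cyp4f genes had means of 0.04 (Cyp4f13) and -0.12 (Cyp4f16).

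The promoter windows of these Cyp4f genes are shown because the ratios differed in sign between them. Each runs from 250 bases before to 50 bases after the first start that RefSeq gives on GRCm38.p6, and letters are 5′ to 3′ along the gene. Capitals mark CCAAT (read on either strand, so also as ATTGG), the core GCGTG of the site of the aryl hydrocarbon receptor (on the other strand CACGC) and the antioxidant response element TGACNNNGC. The Cyp4f14 window lies at chr17:32917307-32917606 on the minus strand and the Cyp4f18 window at chr8:72009577-72009876 on the minus strand. Their longest shared run is AGGGATTGGCTGG, of 13 bases, from base 197 in Cyp4f14 and base 199 in Cyp4f18, and it holds a CCAAT match in each.
Cyp4f14: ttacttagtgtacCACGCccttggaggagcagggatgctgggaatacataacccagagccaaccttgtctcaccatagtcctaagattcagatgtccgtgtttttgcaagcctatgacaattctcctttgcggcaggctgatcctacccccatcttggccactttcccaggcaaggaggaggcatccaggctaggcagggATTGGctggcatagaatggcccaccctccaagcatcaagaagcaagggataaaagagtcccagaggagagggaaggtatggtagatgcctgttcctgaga
Cyp4f18: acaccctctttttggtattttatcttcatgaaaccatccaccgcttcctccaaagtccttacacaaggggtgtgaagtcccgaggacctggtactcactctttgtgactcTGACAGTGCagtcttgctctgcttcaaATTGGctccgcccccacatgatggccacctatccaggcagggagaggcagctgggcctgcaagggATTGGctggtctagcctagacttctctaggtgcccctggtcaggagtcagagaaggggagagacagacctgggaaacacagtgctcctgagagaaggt

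Cyp3a11, the main Cyp3a drug oxidase of mouse liver, had a mean of -0.04 ± 0.29 (SD, n = 3; limma adjusted p = 0.950). Both arrays of mouse 3 were positive and both of mouse 2 and of mouse 4 were negative. Cyp3a13, a Cyp3a enzyme of liver and intestine, was negative on all 6 arrays, from -0.32 to -0.01, with a mean of -0.17 ± 0.09 (SD, n = 3; limma adjusted p = 0.506). Cyp2b10, the classic target of the receptor CAR, had a mean of 0.04 ± 0.10 (SD, n = 3; limma adjusted p = 0.907). Cyp4a14, a fatty acid hydroxylase and target of PPARA, had a mean of 0.01 ± 0.11 (SD, n = 3; limma adjusted p = 0.980). The means of these 4 genes ran from -0.17 to 0.04. Cyp2s1, a P450 of epithelia outside the liver, was negative on 5 of 6 arrays with a mean of -0.20 ± 0.13 (SD, n = 3; limma adjusted p = 0.461). The remaining genes of these families, Cyp2a12, Cyp2f2, Cyp2j9 and Cyp4b1, had means between -0.06 and 0.07.

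Of the enzymes of bile acid synthesis, Cyp27a1, Cyp7b1, Cyp39a1 and Cyp2c70 were among the 69 genes, and no probe among them was named Cyp7a1, Cyp8b1, Cyp46a1, Sult2a1 or Sult2a8. Cyp27a1, the mitochondrial sterol side-chain hydroxylase of the alternative pathway, had ratios between -0.08 and 0.20 on the 6 arrays and a mean of 0.07 ± 0.09 (SD, n = 3; limma adjusted p = 0.844). Cyp7b1, the oxysterol hydroxylase of the same pathway, had ratios of 0.0050, 0.18 and 0.25 with the mutant in Cy5 and -0.38, -0.19 and -0.57 with it in Cy3, in the order of mice 2, 3 and 4. The orientations had opposite signs in all 3 mice, and the mean was -0.12 ± 0.10 (SD, n = 3; limma adjusted p = 0.688). Cyp39a1, another oxysterol hydroxylase, was positive on 5 of 6 arrays with a mean of 0.09 ± 0.04 (SD, n = 3; limma adjusted p = 0.753).

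Cyp2c70 makes the muricholic acids of mice. It had the widest spread of the 4 bile acid genes, with ratios of 1.74 and -0.06 in mouse 2, 0.94 and -1.26 in mouse 3, and -0.27 and 0.78 in mouse 4, with the Cy5 array first. The mean of 0.31 ± 0.50 (SD, n = 3; limma adjusted p = 0.604) fell to 0.05 without mouse 2. On 2 of the 6 arrays the value was a low-signal one, meaning a ratio of whole numbers of 5 or less once the array constant is removed. Cyp26b1, which breaks down retinoic acid, had a mean of 0.17 ± 0.12 (SD, n = 3; limma adjusted p = 0.554), with 0.51 on the Cy3 array of mouse 3 and between -0.0030 and 0.18 on the others. Of the 7 P450 genes outside families Cyp1 to Cyp4, 5 had ratios above 0, with a median of 0.07. The steroid hormone enzymes among them, Cyp11a1, Cyp17a1 and Cyp21a1, had means between -0.09 and 0.07.

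Ugt1a6a, which glucuronidates simple phenols, was negative on every array. Its ratios were -0.22 and -1.0 in mouse 2, -0.35 and -0.58 in mouse 3, and -0.02 and -0.42 in mouse 4, with the Cy5 array first. Each Cy3 array lay below all Cy5 arrays. The mean was -0.43 ± 0.20 (SD, n = 3; limma adjusted p = 0.145), a 1.35-fold difference. The genes of the Ugt1 locus share their later exons, and the sources used here do not say where the probe lies. Ugt2b38 was the other Ugt gene tested, at -0.08 ± 0.18 (SD, n = 3; limma adjusted p = 0.840). The Ugt1a6a window, shown because this gene had the lowest mean among those with no low-signal value, lies at chr1:88134559-88134858 on the plus strand. Capitals mark its 1 CCAAT match, and it held neither GCGTG nor TGACNNNGC.
Ugt1a6a: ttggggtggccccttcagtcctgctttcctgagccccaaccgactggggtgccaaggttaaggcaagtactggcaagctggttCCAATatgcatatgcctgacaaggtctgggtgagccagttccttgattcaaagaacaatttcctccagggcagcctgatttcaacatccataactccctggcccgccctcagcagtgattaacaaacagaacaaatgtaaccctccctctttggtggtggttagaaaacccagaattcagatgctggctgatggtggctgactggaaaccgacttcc

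Among the sulfotransferases, Sult1a1, which sulfates phenols, was negative on all 6 arrays, from -0.38 to -0.01, with a mean of -0.17 ± 0.05 (SD, n = 3; limma adjusted p = 0.503). Sult2b1, a cholesterol sulfotransferase of skin, had a mean of 0.06 ± 0.03 (SD, n = 3) and Sult4a1, a brain form, of -0.03 ± 0.19 (SD, n = 3).

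The 16 tested glutathione S-transferases had 10 ratios above 0 and 6 below, with a median of 0.04. Gstk1, the kappa form of mitochondria and peroxisomes, was positive on all 6 arrays. Its ratio was 0.79 on the Cy3 array of mouse 3 and between 0.11 and 0.27 on the other 5. The mean of 0.26 ± 0.18 (SD, n = 3; limma adjusted p = 0.376) was 0.15 without that array. Gstz1, an enzyme of tyrosine breakdown, was positive on all arrays after its 2 probes were averaged, at 0.10 ± 0.03 (SD, n = 3; limma adjusted p = 0.702). The probes differed. The first was positive on all 6 arrays, from 0.16 to 0.42, and the second ran from -0.34 to 0.07.

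Gstm5, a mu form of brain and testis, had the lowest mean of all the enzymes and the largest spread, at -0.48 ± 0.77 (SD, n = 3; limma adjusted p = 0.585). The second of its 2 probes carried both, with values from -3.67 to 1.04 and 4 low-signal values. The first probe had a mean of 0.10 and values from -0.03 to 0.22. Without mouse 3 the gene's mean was -0.03. The alpha forms Gsta2, Gsta3 and Gsta4 and the pi form Gstp1, which conjugate lipid peroxidation products and other electrophiles, had means between -0.09 and 0.07. The other mu forms and the theta and omega forms, Gstm1 to Gstm3, Gstt1 to Gstt4, Gsto1 and Gsto2, had means between -0.09 and 0.12.

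Carboxylesterases cleave esters and amides of drugs and lipids. Of 6 tested genes, 2 had ratios above 0 and 4 below, with a median of -0.01. Ces1c, the carboxylesterase that mouse liver secretes into plasma, had ratios of 0.55 and 0.23 in mouse 2, 0.33 and -0.02 in mouse 3, and 0.65 and 0.42 in mouse 4, with the Cy5 array first. It was positive on 5 of 6 arrays and lower on the Cy3 array of each mouse. The mean was 0.36 ± 0.19 (SD, n = 3; limma adjusted p = 0.217), a 1.28-fold difference. Over the alternatives it ran from 0.15, with the Cy3 columns turned, to 0.51, with the mutant in Cy5 alone. The turned value measures the difference between dye orientations if the columns run mutant over pool. With the mutant in Cy3 alone the mean was 0.21. Ces1e, a carboxylesterase of the endoplasmic reticulum, was positive on all 6 arrays. Its ratio was 0.88 on the Cy3 array of mouse 3 and between 0.08 and 0.24 on the other 5. The mean of 0.25 ± 0.22 (SD, n = 3; limma adjusted p = 0.446) was 0.12 without that array. Ces1f, their neighbour, had a mean of -0.01 ± 0.15 (SD, n = 3), and Ces2a, Ces2g and Ces3b had means between -0.15 and -0.0022. The Ces1c window, shown because this gene had the highest mean, lies at chr8:93131234-93131533 on the minus strand, with its 1 CCAAT match (as ATTGG) in capitals.
Ces1c: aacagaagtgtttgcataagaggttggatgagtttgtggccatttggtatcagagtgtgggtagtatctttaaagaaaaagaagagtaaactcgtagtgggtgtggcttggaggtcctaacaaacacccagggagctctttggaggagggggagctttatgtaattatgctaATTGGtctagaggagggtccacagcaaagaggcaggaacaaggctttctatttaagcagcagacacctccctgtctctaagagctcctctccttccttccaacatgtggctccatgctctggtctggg

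Fmo1, a flavin monooxygenase that oxidises nitrogen and sulfur in drugs, had a mean of -0.08 ± 0.18 (SD, n = 3; limma adjusted p = 0.832). Ephx2, the soluble epoxide hydrolase, had a mean of 0.04 ± 0.10 (SD, n = 3; limma adjusted p = 0.918). Ephx1, the microsomal form, was not tested because it was measured on 5 arrays. Its ratios were -0.09 in mouse 2, 0.99 and -2.31 in mouse 3, and 2.26 and 2.20 in mouse 4. Both arrays of mouse 4 were high and those of mouse 3 had opposite signs. Aldh9a1, an enzyme of carnitine synthesis, was measured on 2 arrays, at 0.20 in mouse 2 and -4.15 in mouse 3, and was not tested.

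The 12 tested aldehyde dehydrogenases had 6 ratios above 0 and 6 below, with a median of 0.0022. The lowest unadjusted p belonged to Aldh3b1, which oxidises aldehydes from lipids. Its ratios with the mutant in Cy5 were -0.12, 0.14 and 0.14 and with the mutant in Cy3 -0.83, -0.25 and -0.33, in the order of mice 2, 3 and 4. Its orientations did not overlap, and the mean was -0.21 ± 0.23 (SD, n = 3; limma adjusted p = 0.556). Aldh2, the mitochondrial enzyme that clears acetaldehyde, had a mean of 0.02 ± 0.05 (SD, n = 3). Aldh1a1, a cytosolic enzyme that also makes retinoic acid, had a mean of -0.15 ± 0.41 (SD, n = 3), with -1.52 on the Cy3 array of mouse 3 and between -0.11 and 0.34 on the others. The first of its 2 probes, measured on all 6 arrays, had a mean of 0.13. The second was measured on 4, with 2 low-signal values and a lowest value of -3.42 on that Cy3 array. The remaining 9 tested genes of the family had means between -0.12 and 0.09.

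The enzymes were then grouped by the factors that control them and by where in the liver lobule they are made. None of these groups held an enzyme past the adjusted threshold. Of the targets of the aryl hydrocarbon receptor, 2 of 6 were tested, Ugt1a6a at -0.43 and Aldh3a1 at 0.01. Of 13 targets of the receptors CAR and PXR, 6 were tested, with 2 ratios above 0, 4 below and a median of -0.02. Of 14 targets of NRF2, the sensor of electrophiles, 8 were tested, with 5 above 0, 3 below and a median of 0.02. Of 9 targets of PPARA, 5 were tested, with 3 above 0, 2 below and a median of 0.01. The median of all features was 0.02.

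Of 10 enzymes biased to males in mouse liver, 4 were tested, with 1 ratio above 0 and a median of -0.09, and of 19 biased to females 4 were tested, with 2 above 0 and a median of -0.01. Of 15 enzymes made around the central vein, 6 were tested, with 2 above 0 and a median of -0.03. Of 5 made around the portal vein, 3 were tested, all above 0, with a median of 0.05 and a highest mean of 0.07.

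Genes that are not enzymes of these families but serve them were also read. Of 65 such genes 46 were tested, 34 had ratios above 0, against 59.5% of all features, and the median was 0.04. At an unadjusted p under 0.05 there were 8, against 9.92% of all features, and 1 passed the adjusted threshold, against 0.333%. This was Ugp2, which makes UDP-glucose, the precursor of both glycogen and the sugar donor of the Ugt enzymes. Its ratios were 1.51 and 1.29 in mouse 2, 0.60 and 0.90 in mouse 3, and 1.17 and 1.26 in mouse 4, with the Cy5 array first. All were positive and mouse 3 was the lowest. The mean was 1.12 ± 0.33 (SD, n = 3; limma adjusted p = 0.0217), a 2.18-fold difference, likely higher in the mutant. The adjusted p in limma was 0.126 without mouse 2 and 0.108 without mouse 4, and with median centring it was 0.0600. It was 0.0922 with the mutant in Cy5 alone, 0.106 without the Cy3 array of mouse 3 and 0.611 with an unmoderated test. It stayed under 0.05 without mouse 3 (0.0189), with the mutant in Cy3 alone (0.0460) and with mouse 1 added (0.00535). The same held with mouse as a random block (0.00493), single probes (0.0100) and low-signal values left out (0.00232). With a variance trend and robust estimation it was 0.0327. No feature of the array passed without mouse 4 or with the unmoderated test, and 1 passed without mouse 2. With the Cy3 columns turned the mean was -0.03. Ugdh, which turns UDP-glucose into the sugar donor, had a mean of 0.07 ± 0.19 (SD, n = 3; limma adjusted p = 0.860).

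Of 9 genes that supply cofactors for conjugation, 7 were tested, 6 had ratios above 0, against 59.5% of all features, and the median was 0.25. At an unadjusted p under 0.05 there were 4, against 9.92% of all features. They were Ugp2, Gss, Gclm and Mat1a, of which the last 3 are singled out here after their values were seen. Gss and Gclm, enzymes of glutathione synthesis, were positive on all 6 arrays. Gss ran from 0.11 to 0.57, with a mean of 0.32 ± 0.10 (SD, n = 3; limma adjusted p = 0.191). Gclm ran from 0.15 to 0.45, with a mean of 0.25 ± 0.08 (SD, n = 3; limma adjusted p = 0.284). Gclc, the catalytic partner of Gclm, had a mean of -0.09. Mat1a, which makes the methyl donor S-adenosylmethionine in liver, had a mean of 0.31 ± 0.11 (SD, n = 3; limma adjusted p = 0.201).

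Of 15 receptors and transcription factors of these enzymes 13 were tested, with 9 ratios above 0 and a median of 0.02. At an unadjusted p under 0.05 in limma there were 3, against 9.92% of all features. They were Arnt, Nr1i2 and Rxra, singled out here after their values were seen. Arnt, the partner of the aryl hydrocarbon receptor, was positive on all 6 arrays, from 0.17 to 0.59, with a mean of 0.33 ± 0.10 (SD, n = 3; limma adjusted p = 0.178). Nr1i2, which encodes PXR, was positive on all 6, from 0.08 to 0.25, with a mean of 0.17 ± 0.06 (SD, n = 3; limma adjusted p = 0.482). Rxra went the other way and had the lowest mean of the list, at -0.21 ± 0.16 (SD, n = 3; limma adjusted p = 0.471). Its ratios ran from -0.97 to 0.37. Nr1i3, which encodes CAR, ran from -1.18 to 2.44, with a mean of 0.16 ± 0.996 (SD, n = 3). Of 6 genes of electron supply and haem 5 were tested, all with ratios above 0 and a median of 0.11. Of 25 other conjugating and oxidising enzymes 13 were tested, with 9 above 0 and a median of 0.03. Of 10 other genes of bile acid synthesis and conjugation 8 were tested, with 5 above 0 and a median of 0.03.

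Markers of the cells a liver sample can hold were read in the same fit, and none passed the adjusted threshold. An unadjusted p under 0.05 in limma was found for 3 endothelial and 2 cholangiocyte genes. The hepatocyte list, the macrophage list and the list of stellate cells and fibroblasts had 1 each. The share among all features was 9.92%. The hepatocyte list had 6 of 12 genes tested, a median of -0.0029 and medians between -0.01 and 0.09 in the 3 mice. The cholangiocyte list had 6 of 8 genes tested and a median of 0.08, between -0.04 and 0.15 by mouse, with means from -0.20 (Cldn4) to 0.81 (Krt7). The macrophage list had 5 of 8 tested and a median of -0.01, with means from -0.37 (Itgam) to 0.02 (Lyz2). The list of stellate cells and fibroblasts had 6 of 8 tested and a median of 0.09, with means from -1.02 (Dcn) to 0.23 (Des). The endothelial list had 7 of 8 tested and a median of 0.02, with means from -0.39 (Eng) to 0.23 (Cdh5). A list for kidney and intestine tissue, read beside them, had 3 of 5 genes tested, all above 0, with a median of 0.11. None of the 3 had an unadjusted p under 0.05 in limma. The part of cell makeup in the enzyme ratios was not tested. The files hold ratios and not levels, so the presence of liver transcripts could not be read from them directly.

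Values were also set side by side by dye orientation. The median of the 67 enzymes was 0.04, 0.08 and 0.05 on the Cy5 arrays of mice 2, 3 and 4 and -0.09, 0.04 and -0.02 on their Cy3 arrays. The number above 0 was between 40 and 43 of 67 with the mutant in Cy5 and between 22 and 36 with it in Cy3. The Cy5 array had the higher median in all 3 mice, and the same order held for all features in mice 2 and 4 but not in mouse 3, where the medians were 0.07 on both.

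No enzyme passed the limma test of the difference between orientations at an adjusted p under 0.05, which 0.155% of all features did. At an unadjusted p under 0.05 there were 13 enzymes (19.4%), against 14.2% of all features. All 13 were higher with the mutant in Cy5, a direction found for 13.2% of all features. The 3 arrays of one orientation did not overlap those of the other for 17 enzymes (25.4%), against 21.0% of all features, and 12 of the 17 (17.9% of the 67) were higher with the mutant in Cy5, against 16.7% of all features. Cyp2d22 had the lowest p of this difference, at 0.996 between orientations (limma adjusted p = 0.0979). Cyp4b1, a P450 of lung, followed, with means of 0.27 and -0.38. Cyp2d22, Cyp4f14, Ugt1a6a, Aldh3b1 and Cyp7b1, whose means over both orientations were negative, were among the 13.

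**Figure D2:**
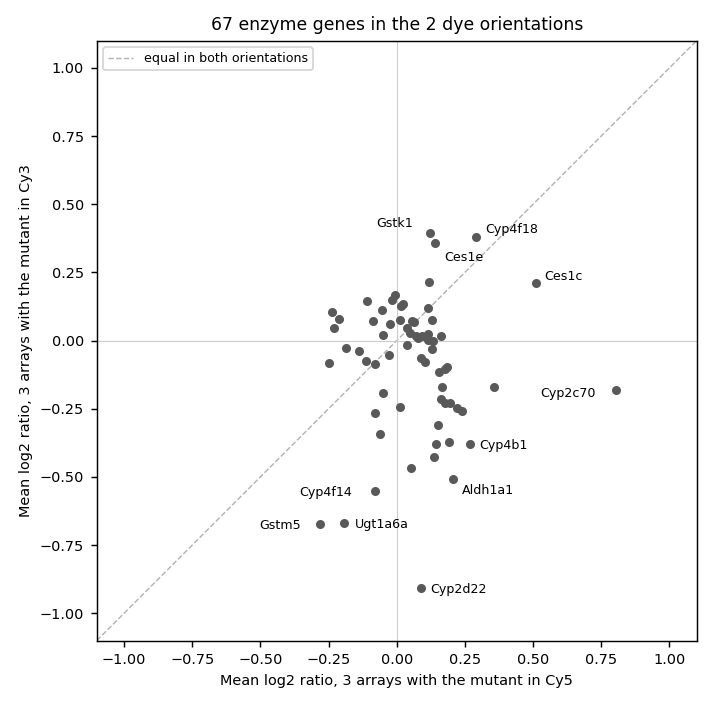
Mean log2 ratio of each of 67 enzyme genes over the 3 arrays with the mutant in Cy5 (horizontal axis) and over the 3 arrays with the mutant in Cy3 (vertical axis); each point is 1 gene and the dashed line marks equal ratios. Cyp2d22 lies at 0.09 and -0.91, far below the line, while Cyp4f18 lies near it at 0.29 and 0.38.

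Whether probes of 1 gene gave like values was read from the 12 enzymes with more than 1 probe. Among the 11 of them with at least 1 pair measured on all 6 arrays there were 13 pairs. The 2 means had the same sign in 3 of the 13 pairs, and the correlation between them was -0.31 over the pairs, which share their arrays. Their median difference was 0.14 and the largest was 1.14, for Gstm5. Over all named genes, 4847 pairs gave a correlation of -0.0021 and 2496 pairs had the same sign. The gene names come from the platform annotation, and the ratios of paired probes give them no support.

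**Figure D3:**
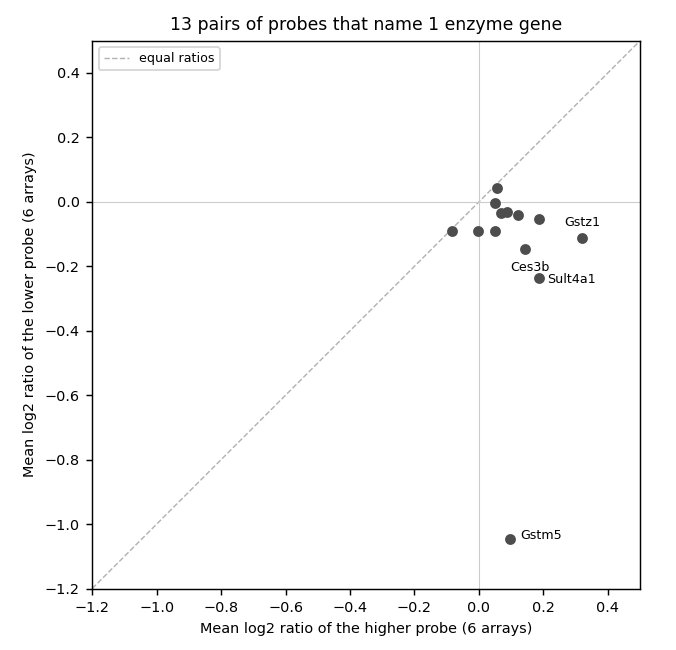
Mean log2 ratio over 6 arrays of the higher probe (horizontal axis) and the lower probe (vertical axis) of each of 13 pairs that name the same enzyme gene; each point is a pair and the dashed line marks equal ratios. In 3 pairs both probes have the same sign, and the second Gstm5 probe stands apart at -1.05.

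Low-signal values were read as a further check on the names. They made up 6.80% of the values of the enzyme probes (33 of 485) and 6.74% of the values of all probes. Of 26 enzymes known to be abundant in liver, such as Cyp3a11, Ces1f and Aldh2, 15 of 195 values (7.69%) were low-signal. Of 10 enzymes known mainly from other tissues, such as Cyp11a1 of steroid-making cells and Cyp21a1 of the adrenal gland, 0 of 66 values were. These came from 11 probes, too few to set a close limit on the share. Both lists were chosen after the values were seen. The values of 1 probe share their source, so these shares are a description.

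Many of these genes lie in clusters of related copies. By the order of genes on GRCm38.p6, 38 of the 69 enzymes fall into 14 groups in which the next enzyme of the set lies within 500000 bases, and 9 of the 14 held ratios of both signs. The 5 Cyp2d genes ran from -0.41 to 0.07, the 4 Gstm genes from -0.48 to 0.12, and the 3 Ces1 genes from -0.01 to 0.36. The 4 Gstt genes stayed between -0.02 and 0.06, and Ces2a, Ces2g and Ces3b were all below 0. Related copies can bind the same probe, and the sources used here do not say which copies each probe binds.

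**Figure D4:**
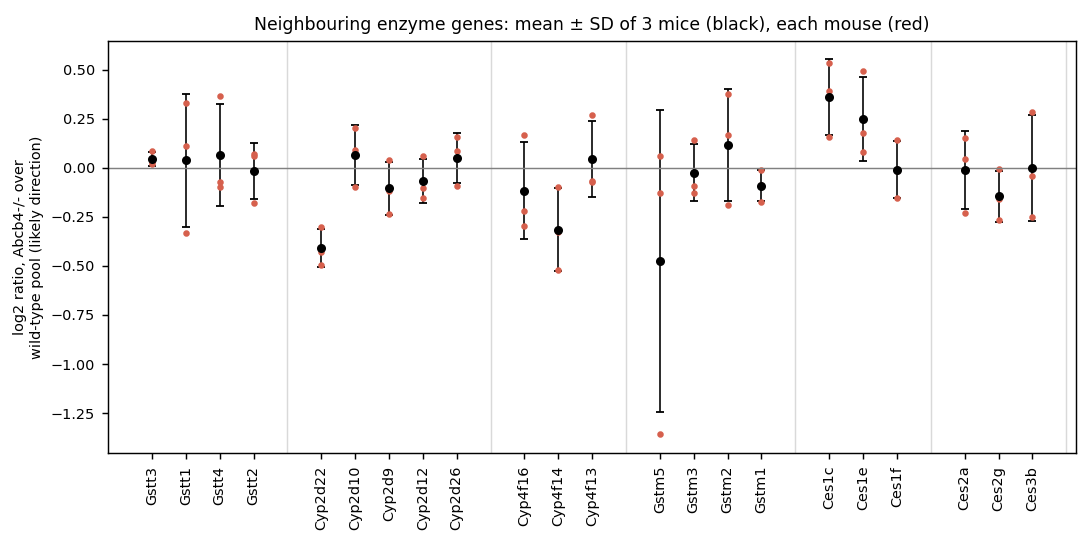
Log2 ratio (vertical axis) of enzyme genes that lie next to each other in the genome, for groups with at least 3 tested genes, with each mouse in red and the mean ± SD of 3 mice in black. Cyp2d22 lies at -0.41 and the other Cyp2d genes lie between -0.11 and 0.07, and Gstm5 has the widest error bar (SD 0.77).

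The promoter windows of the enzymes were searched on both strands for 5 motifs. Windows were found for 53 of the 69, and Aldh2, Aldh3a1, Aldh7a1, Ces1f, Cyp17a1, Cyp21a1, Cyp2d12, Cyp2d22, Cyp39a1, Cyp4a14, Cyp7b1, Ephx2, Fmo1, Gsta4, Gstt2 and Sult4a1 were not among them. CCAAT occurred in 36 of the 53 windows (67.9%), against 37.9% of all 27025 windows of the same length. The TATA box TATAAA occurred in 22.6%, against 14.2%. The receptor core GCGTG occurred in 22.6%, against 32.5%, and the element TGACNNNGC in 7.55%, against 12.5%. The nuclear receptor half-site AGGTCA occurred in 15.1%, against 16.0%. Of the 4 windows printed above all held CCAAT, Cyp4f14 alone held GCGTG and Cyp4f18 alone held TGACNNNGC. These are matches of letters and not measured binding.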

How the data were processed

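Liver RNA of Abcb4-/- mice was compared with a wild-type pool on 8 2-colour arrays. The authors deposited log2 ratios. The sources used here do not say how the slides were scanned, corrected and normalized, or which way the ratios run. Low-signal values were defined as those within 0.0008 of a log2 ratio of whole numbers of 5 or less, once the array constant was removed. Values above 15 in size, placeholders for 1 empty channel, were left out. Probes were named through the platform annotation and averaged by symbol per array, which could hide differences between probes, and unnamed probes were kept singly. Both arrays of a mouse are technical dye swaps and were averaged. Mice 2, 3 and 4 were used.

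Means were tested against 0 with lmFit and eBayes of limma 3.58.1 (R 4.3.3), two-sided, with Benjamini-Hochberg adjustment over 16796 features measured on all 6 arrays and a threshold of 0.05. Differences between dye orientations were tested in the same way. The fits were tested on simulated data. The mice are separate animals and the arrays of 1 mouse are not. Individually named enzymes were those past the threshold, those of 1 sign on all arrays, the lowest p of each family, and the bile acid enzymes; Cyp4f14, Cyp2s1, Gstm5, Cyp4f16 and Cyp4f13 and the further examples were added after their values were seen. The enzymes, the lists and the tests were chosen with earlier results of these data known. The alternatives left out each mouse, added mouse 1 from its Cy5 column, centred arrays on the median, used each orientation alone, turned the Cy3 columns, took mouse 3 from its Cy5 array, fitted all arrays with mouse as a random block, used single probes, left out low-signal values, or changed the variance model or threshold.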

Additional observations from a re-analysis of the deposited data

Results flagged for a closer look

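On the mouse 3 Cy3 array, the ratios of 3 enzymes stood apart from those of the other 5 arrays: Ces1e at 0.877, Gstk1 at 0.786 and Cyp26b1 at 0.509. In each case the gap to the nearest array took up more of the whole range over 6 arrays than the critical value of Dixon's test allows. The SD of all tested features on the same array, at 0.444, stood apart from the others in the same way. Of 27 quantities screened, 4 were marked, and chance marks about 1 in 20. Without that array the means were 0.12 for Ces1e, 0.15 for Gstk1 and 0.09 for Cyp26b1, all still positive.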

How the results depend on the processing

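No enzyme passed the limma test against the pool under 14 of the settings run. With low-signal values left out 1 of 52 enzymes passed, against 121 of 12325 features. This was Cyp2d22, at -0.41 with a limma adjusted p of 0.0407. Leaving out 1 mouse at a time gave 0 enzymes each time. For the difference between dye orientations it gave between 0 and 2 of 67 enzymes. These were Cyp2d22 and Gstm5 without mouse 2, where 447 of 16796 features passed, and Cyp2c70 without mouse 4, where 122 passed. The median of the enzymes was 0.083 with the mutant in Cy5 alone. It changed sign with median centring (-0.02), with the mutant in Cy3 alone (-0.03), and without mouse 3 (-0.01) or mouse 4 (-0.00075). The median of all features was 0.072 with the mutant in Cy5 alone and -0.015 with it in Cy3 alone. With median centring it was -0.0076, without mouse 3 0.0065 and without mouse 4 0.026. The count at an unadjusted p under 0.05 was 9 and fell to 4 without mouse 2, with a variance trend and robust estimation, and with an unmoderated test. The share among all features fell as well, from 9.92% to 7.25%, 7.61% and 7.80% in that order. Of 304 alternative values for 22 named enzymes 279 kept their sign and their side of the threshold and 24 changed sign. For Ces1c, Cyp39a1, Gstz1 and Sult1a1 none of these values changed sign. In the setting of single probes, Ephx2, Gstm5 and Gstz1 were counted by their first probe alone. The second probe of Gstz1 had a mean of -0.11 and that of Ephx2 -0.04, opposite in sign to the first, and neither is in these counts. The values with the Cy3 columns turned are the same quantity as in the test of dye orientations. If the columns run mutant over pool, their sign is no check on the ratio to the pool. With the mutant in Cy5 alone the changed values were 0.054 for Aldh3b1, 0.089 for Cyp2d22, 0.012 for Cyp4f16 and 0.14 for Cyp7b1, and with it in Cy3 alone -0.18 for Cyp2c70. With the Cy3 columns turned they were 0.26 for Aldh3b1, -0.11 for Ces1e, -0.050 for Cyp26b1, -0.0042 for Cyp27a1, 0.50 for Cyp2d22, 0.14 for Cyp2s1, 0.093 for Cyp3a13, 0.24 for Cyp4f14, 0.13 for Cyp4f16, -0.044 for Cyp4f18, 0.26 for Cyp7b1, 0.0035 for Fmo1, -0.14 for Gstk1, 0.20 for Gstm5 and 0.24 for Ugt1a6a, as well as -0.075 for Arnt, -0.058 for Gclm, -0.12 for Gss and -0.028 for Ugp2. Cyp4f13 was -0.016 with mouse 3 from its Cy5 array, and the first Gstm5 probe taken singly was 0.10. The second Gstm5 probe had a mean of -1.05. Leaving out 1 mouse, Cyp4f13 ranged from -0.069 to 0.10 and Ephx2 from -0.011 to 0.093. The cause of these changes was not tested. No paired analysis was possible because each mutant mouse was hybridised against the same pool and there is 1 group. Signal over background is not known for these arrays.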
